A study of Arabidopsis thaliana with 9 samples.

Results

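The genes described here encode proteins of the cytosolic ribosome of Arabidopsis thaliana, 25 of the large subunit (RPL) and 26 of the small subunit (RPS). They were taken by locus code from a list of 51, and all 51 were found among the 22903 genes in each library. RNA sequencing of material labelled as seedlings, collected at 14 days of age and grown in cycles of 16 hours of light and 8 hours of dark, covered 3 genotypes with 3 libraries each: aar2-1, aar2-2 and wild type (WT). Root-defining genes were nearly absent from these libraries, the summed level of 5 of them being 4.35 to 9.11 CPM. Both mutants are named for AAR2, a gene that shares its name with a yeast factor that acts in the assembly of the U5 particle of the spliceosome. The labels give neither the kind of lesion nor the accession background, and no transgene or treatment is named for any group. Levels are in CPM, a read count divided by the library's total and rescaled so that all libraries have the same sum.

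Each cytosolic ribosome joins a large and a small subunit, and every subunit is built in the nucleolus from ribosomal RNA and one copy of most of its proteins. In Arabidopsis nearly every ribosomal protein is made from several paralogous genes, so that a protein's supply is shared among genes that can be regulated apart. Ribosomal protein mRNAs are among the most abundant of growing plant cells, and mutants in single genes of the class often have pointed first leaves, altered leaf polarity or embryo defects. The 51 genes belonged to 24 protein families, of which 4 had 1 member here, 13 had 2 and 7 had 3. A family below means its members among these 51, and paralogues outside the list are not counted in it.

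The short upstream regions of these genes are known for 2 DNA elements, the telo-box and the site II element, the second being bound by TCP transcription factors. In the 250 bases before the outermost annotated start of each gene, read on both strands from RefSeq TAIR10.1, the telo-box AAACCCTA was found in 7 of 51 genes (13.7%), against 3.69% of 22766 listed genes. Site II, searched as TGGGCC or TGGGCT, was found in 32 of 51 (62.7%), against 21.0% of the listed genes. Both were present in 4 of 51 (7.84%), against 1.25%. Among 136 other ribosomal protein genes the telo-box was found in 19.1% and site II in 69.9%, so neither element is particular to the 51. All 250 bases were searched for every gene, also where they reach into a neighbouring gene. Sequences are shown for 3 genes, chosen after their values were seen, because they pair different fold changes with different numbers of site II matches, none of them holding a telo-box: ATL5 and RPL24A, which were higher in both mutants, and STV1, the paralogue of RPL24A. They run 5′ to 3′ towards the gene and stop short of any neighbouring gene, which leaves 49 bases for ATL5 and 169 for STV1, and capitals mark the site II letters on either strand. All 3 lie on the minus strand, at chr3:9271466-9271514 for ATL5, chr2:15352014-15352263 for RPL24A and chr3:19662026-19662194 for STV1.
ATL5: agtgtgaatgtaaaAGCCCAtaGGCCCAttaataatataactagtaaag
RPL24A: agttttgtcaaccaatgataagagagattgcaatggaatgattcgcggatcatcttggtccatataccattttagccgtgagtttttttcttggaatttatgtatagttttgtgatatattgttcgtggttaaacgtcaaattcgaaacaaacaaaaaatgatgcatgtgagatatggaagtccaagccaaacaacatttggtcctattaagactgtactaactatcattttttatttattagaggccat
STV1: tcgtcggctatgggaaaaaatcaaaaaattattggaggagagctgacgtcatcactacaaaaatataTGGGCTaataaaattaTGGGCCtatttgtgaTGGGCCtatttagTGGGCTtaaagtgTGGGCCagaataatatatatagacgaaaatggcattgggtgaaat
ATL5 held 2 site II matches, STV1 held 5 and RPL24A held none of the searched letters in its window.

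The libraries held between 24471217 and 35266334 reads over the listed genes, and the mutant libraries were all deeper than the WT ones. Reads behind a single value of the 51 genes ran from 146, for RPSAb in its lowest library, to 21709. For AAR2 (AT1G66510) the level in CPM was 7.33, 5.49 and 5.30 for aar2-1 and 5.28, 4.36 and 4.11 for aar2-2, against 7.64, 7.11 and 8.27 for WT. Its log2 fold change was -0.31 in aar2-1 (limma, adjusted p = 0.101) and -0.64 in aar2-2 (limma, adjusted p = 0.00908). The replicates are described as biological, with nothing more on their origin, so p-values measure the spread between these libraries.

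Many ribosomal protein genes were higher in aar2-2, each by a small amount. In aar2-1 a few were called higher, also by small amounts, and their share was not far above that of all genes. In aar2-2 31 of the 51 genes (60.8%) were higher than in WT and none was lower, against a background of 12.1% higher and 9.4% lower, 21.5% in all, among the 18838 genes tested (limma on log2(CPM + 1), Benjamini-Hochberg adjusted p under 0.05 over all genes). The median log2 fold change of the 51 was 0.23, a level 1.18-fold that of WT, against 0.03 over all genes. In aar2-1 8 of the 51 genes (15.7%) were higher and none was lower, against a background of 11.5% higher and 13.6% lower, 25.1% in all. The median of the 51 was 0.12 on the log2 scale, 1.08-fold, against -0.0037 over all genes. Both mutants were compared with the same 3 WT libraries, so their calls are not independent of each other. The 8 genes called in aar2-1 were also called in aar2-2 (6.4% of all genes were called higher in both), 23 were called in aar2-2 alone and 20 in neither. A fold change here is on the log2(CPM + 1) scale, and in tissue sequenced in bulk more cells of a type and more RNA per cell cannot be told apart.

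The sign of the change was more uniform than the calls. Fold changes above 0 were found for 51 of 51 genes in aar2-2, against 55.1% of all genes, and for 43 of 51 in aar2-1, against 49.4%. Every aar2-2 library lay above every WT library for 45 of the 51 genes, against 25.1% of all genes, and SAG24, AT2G19730, RPS18C and AT4G25740 were among the 6 exceptions. Every aar2-1 library lay above every WT library for 20 genes, against 19.8% of all genes, and below them for 1 gene, AT3G13580, against 21.8%. The lower side held no gene in aar2-2, against 19.2% of all genes. In the cumulative distribution of fold changes the curve of the 51 genes rises more steeply than that of all genes and lies to the right of it over most of its height.

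**Figure D1:**
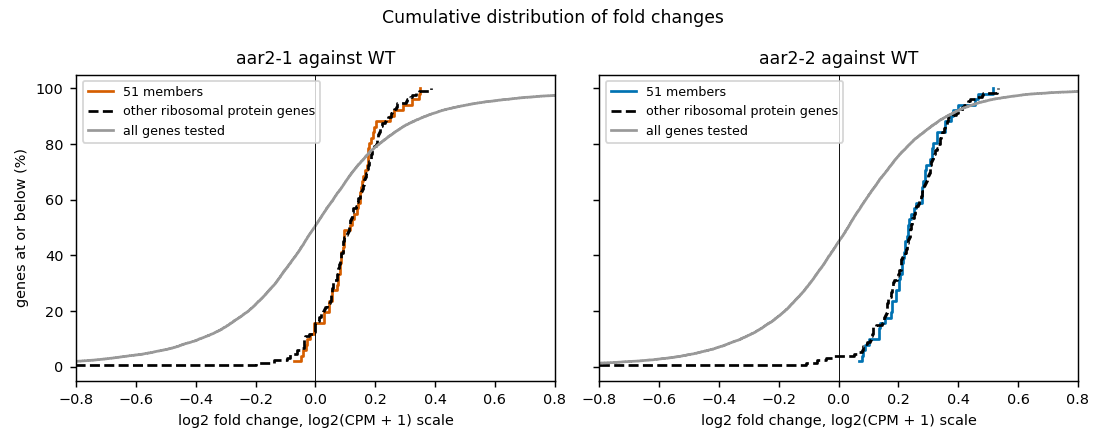
Cumulative share of genes (y axis, %) at or below a given log2 fold change against WT (x axis, log2(CPM + 1) scale), for aar2-1 (left) and aar2-2 (right). The 51 ribosomal protein genes (coloured) and the other ribosomal protein genes (dashed) nearly coincide, with medians of 0.12 and 0.11 in aar2-1 and of 0.23 and 0.24 in aar2-2, while all genes tested (grey) are spread around 0.

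The number of genes called depended on single libraries. In aar2-2 it was 12 without WT replicate 1, 18 without WT replicate 2, 16 without aar2-2 replicate 1 and 17 without aar2-2 replicate 2. In aar2-1 it was 2 without WT replicate 1, without WT replicate 2 or without aar2-1 replicate 1, and 4 without aar2-2 replicate 2. Calls over all genes fell as well. Without WT replicate 1 they went from 4732 to 2341 in aar2-1 and from 4046 to 1746 in aar2-2. The libraries also shifted many of these genes together within a genotype: replicate 1 of aar2-1 was the highest of its group for 46 genes, replicate 1 of aar2-2 for 44, and WT replicate 3 was the highest of its group for 46.

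Between the mutants, none of the 51 genes passed the test. All 51 genes had a higher mean in aar2-2 than in aar2-1, with a median difference of 0.13 on the log2 scale, against 60.6% of genes and a median of 0.04 over all genes; under trimmed-mean (TMM) scaling 50 were higher and RPS18C was lower, with a difference of -0.03. Every aar2-2 library lay above every aar2-1 library for 23 genes, against 13.7% of all genes. None of the 51 was called in this comparison, where limma called 0.0212% of all genes. At an unadjusted p under 0.05 there were 16 of the 51, against 3022 of the 18838 genes tested. On the recovered reads edgeR and DESeq2 also called 0 of the 51, against 8 and 380 genes of all.

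**Figure D2:**
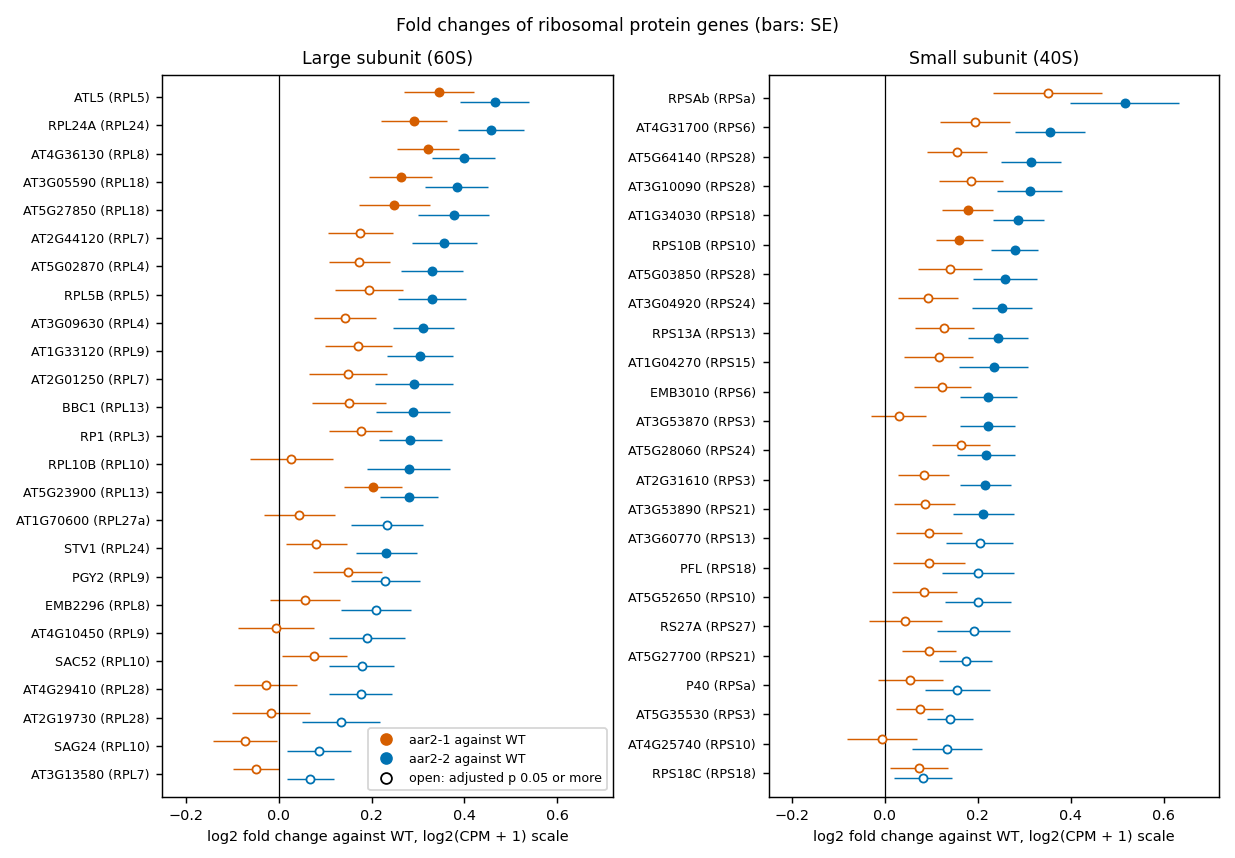
Log2 fold change against WT (x axis, log2(CPM + 1) scale) of the genes drawn (rows), with bars of 1 standard error, for aar2-1 (orange) and aar2-2 (blue), large subunit left and small subunit right. Filled points have an adjusted p under 0.05; all blue points drawn lie right of 0 and right of the orange point of the same gene.

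In the large subunit, 16 of the 25 genes (64.0%) were higher in aar2-2 and 6 (24.0%) in aar2-1, against 12.1% and 11.5% of all genes. Medians of the log2 fold change were 0.28 in aar2-2 and 0.15 in aar2-1. All 6 genes called in aar2-1 were also called in aar2-2, and they encode RPL5, RPL24, RPL8, RPL18 and RPL13.

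RPL5 carries the small 5S ribosomal RNA into the large subunit and is made from ATL5 (AT3G25520) and RPL5B. ATL5 was at 499, 477 and 448 CPM in aar2-1 and at 542, 498 and 508 CPM in aar2-2, against 355, 359 and 408 CPM in WT. No mutant library overlapped a WT library. Its log2 fold changes were 0.34 in aar2-1 (limma, adjusted p = 0.0104) and 0.46 in aar2-2 (limma, adjusted p = 0.00400), each with a standard error of 0.0751. Without WT replicate 1 the call in aar2-1 was lost (limma, adjusted p = 0.0521). RPL5B was at 0.20 in aar2-1 (limma, adjusted p = 0.0760) and 0.33 in aar2-2 (limma, adjusted p = 0.0132).

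RPL24 is made from RPL24A (AT2G36620) and STV1 (AT3G53020), and STV1 is known for the reinitiation of translation after upstream reading frames. RPL24A was at 141, 141 and 125 CPM in aar2-1 and at 161, 151 and 145 CPM in aar2-2, against 110, 105 and 117 CPM in WT, with no overlap between mutant and WT libraries. The log2 fold change of RPL24A was 0.29 in aar2-1 (limma, adjusted p = 0.0163) and 0.46 in aar2-2 (limma, adjusted p = 0.00344). The aar2-1 call was lost without WT replicate 1, WT replicate 2 or aar2-1 replicate 1, with adjusted p-values of 0.0600, 0.0537 and 0.0581 (limma). STV1 was called in aar2-2 only, at 0.23 (limma, adjusted p = 0.0324), and had 0.08 in aar2-1 (limma, adjusted p = 0.384). Of this pair, the gene without a site II match had the larger fold changes and the gene with 5 matches the smaller. The pair was chosen after its values were seen. Over the 51 genes, those with a match had the larger median fold change in both mutants.

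RPL8 is a protein of the core of the large subunit near the peptidyl transferase centre. Its gene AT4G36130 was at 128, 116 and 111 CPM in aar2-1 and at 127, 124 and 123 CPM in aar2-2, against 92.3, 90.2 and 101 CPM in WT. Every mutant library was above every WT library. Log2 fold changes were 0.32 in aar2-1 (limma, adjusted p = 0.00899) and 0.40 in aar2-2 (limma, adjusted p = 0.00483), and this was the only one of the 51 genes called in aar2-1 at an adjusted p under 0.01. Of its exonic bases 23.9% are covered by exons of a listed gene on the other strand, and no strand setting of the counting is given in the sources used here. Its paralogue EMB2296 (AT2G18020) was at 0.06 in aar2-1 (limma, adjusted p = 0.614) and 0.21 in aar2-2 (limma, adjusted p = 0.0715).

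Both RPL18 genes among the 51 were called in both mutants. RPL18 (AT3G05590) was at 323, 320 and 303 CPM in aar2-1 and at 361, 334 and 334 CPM in aar2-2, against 257, 248 and 284 CPM in WT. AT5G27850 was at 329, 287 and 296 CPM in aar2-1 and at 358, 322 and 317 CPM in aar2-2, against 257, 241 and 269 CPM in WT. Neither gene had a mutant library within the WT range. The 2 genes moved by nearly the same amount, 0.26 and 0.25 in aar2-1 and 0.38 each in aar2-2, and they share no stretch of 50 bases. The coding sequences of the gene models used are 405 bases for RPL18 and 564 for AT5G27850. Their identity was 64.4% with gaps counted as differences, so the unequal lengths lower it. Exons of a listed gene on the other strand cover 17.0% of the AT5G27850 exons. Its aar2-1 call was lost without any of WT replicates 1 to 3, aar2-1 replicate 1, aar2-1 replicate 3 or aar2-2 replicate 2 (limma, adjusted p from 0.0528 to 0.123), and that of RPL18 without WT replicate 1, WT replicate 2 or aar2-1 replicate 1 (limma, adjusted p from 0.0654 to 0.0814).

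Among the 51 genes, RPL13 is represented by BBC1 and AT5G23900. AT5G23900 was at 110, 97.2 and 105 CPM in aar2-1 and at 116, 108 and 106 CPM in aar2-2, against 89.5, 88.9 and 91.7 CPM in WT, without overlap. It had log2 fold changes of 0.20 in aar2-1 (limma, adjusted p = 0.0397) and 0.28 in aar2-2 (limma, adjusted p = 0.0138). Leaving out WT replicate 1 ended both calls, with adjusted p-values of 0.115 in aar2-1 and 0.0544 in aar2-2 (limma), and the aar2-1 call was also lost without WT replicate 2, WT replicate 3, aar2-1 replicate 1, aar2-1 replicate 3 or aar2-2 replicate 2. BBC1 was called in aar2-2 only, at 0.29 (limma, adjusted p = 0.0292).

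**Figure D3:**
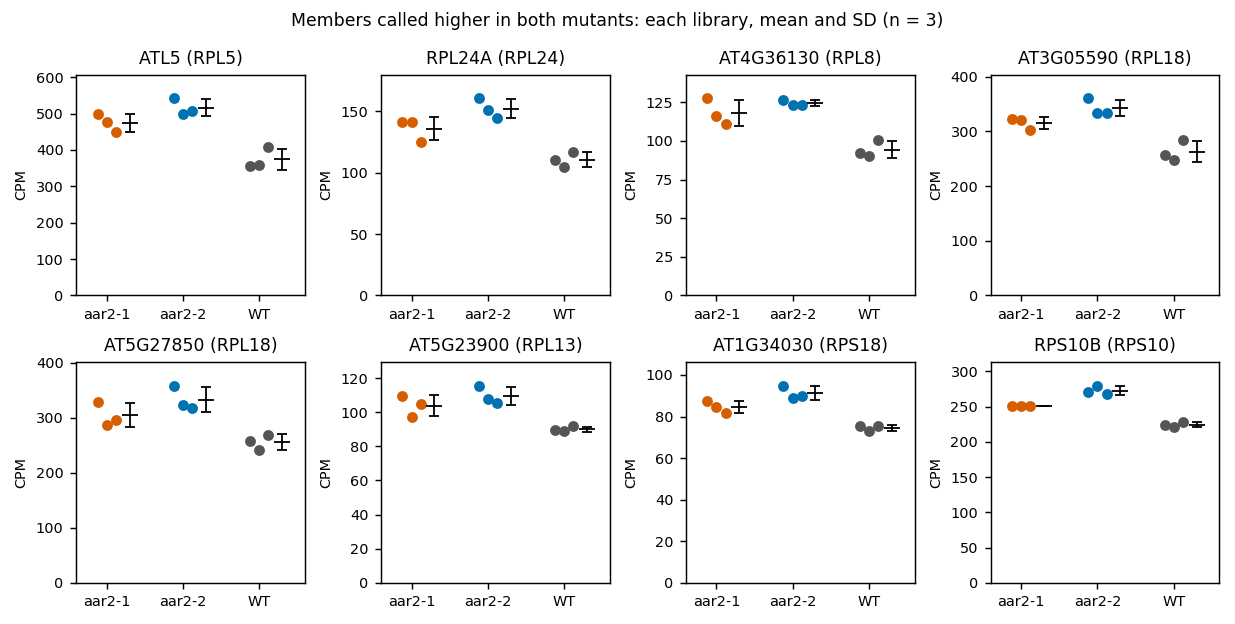
Level of the 8 genes called in both mutants (y axes, CPM) in each library of aar2-1, aar2-2 and WT (x axes); points are libraries and the bar beside them is the mean with SD (n = 3). In every panel the 6 mutant libraries lie above the 3 WT libraries, for ATL5 between 448 and 542 CPM against 355 to 408 CPM.

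The other large-subunit genes called in aar2-2 were RPL5B, STV1, BBC1, both RPL4 genes, AT2G01250 and AT2G44120 of RPL7, AT1G33120 of RPL9, RP1 of RPL3 and RPL10B. RPL3, the product of RP1, reaches towards the peptidyl transferase centre. RP1 was at 618, 580 and 553 CPM in aar2-1 and at 652, 631 and 601 CPM in aar2-2, against 501, 506 and 541 CPM in WT. Its log2 fold change was 0.18 in aar2-1 (limma, adjusted p = 0.0816) and 0.28 in aar2-2 (limma, adjusted p = 0.0177). AT1G33120 and PGY2, the leaf polarity gene PIGGYBACK2, are neighbouring RPL9 genes with 99.1% identical coding bases, and 53.4% and 54.2% of the windows of 50 bases in their mRNAs are shared, so that reads of the pair cannot be told apart with certainty. AT3G13580, the third RPL7 gene among the 51, had smaller fold changes in both mutants than AT2G01250 and AT2G44120. It was at 53.7, 52.7 and 53.8 CPM in aar2-1 and at 58.2, 57.5 and 58.3 CPM in aar2-2, against 56.4, 54.7 and 54.7 CPM in WT, so that the aar2-1 libraries lay below WT and the aar2-2 libraries above it. Neither difference passed the test, at -0.05 (limma, adjusted p = 0.507) and 0.07 (limma, adjusted p = 0.348).

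Of the 26 small-subunit genes, 15 (57.7%) were higher in aar2-2, against 12.1% of all genes. In aar2-1 2 (7.69%) were higher, a share below the 11.5% of all genes. Median log2 fold changes were 0.22 in aar2-2 and 0.09 in aar2-1. The 2 genes called in both mutants encode RPS18, which sits at the head of the small subunit, and RPS10, which lies near the mRNA entry site.

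AT1G34030, one of 3 RPS18 genes, was at 87.6, 84.6 and 81.5 CPM in aar2-1 and at 94.9, 89.2 and 89.8 CPM in aar2-2, against 75.4, 73.0 and 75.4 CPM in WT. Mutant and WT libraries did not overlap. Its log2 fold change was 0.18 in aar2-1 (limma, adjusted p = 0.0390) and 0.29 in aar2-2 (limma, adjusted p = 0.00753). The other RPS18 genes were not called in either mutant: PFL, whose mutants have pointed first leaves, was at 0.10 and 0.20, and RPS18C at 0.07 and 0.08, for aar2-1 and aar2-2 in that order.

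RPS10B was at 251, 250.4 and 251 CPM in aar2-1 and at 270.0, 280 and 268 CPM in aar2-2, against 224, 221 and 228 CPM in WT, again without overlap. It had log2 fold changes of 0.16 in aar2-1 (limma, adjusted p = 0.0430) and 0.28 in aar2-2 (limma, adjusted p = 0.00615). The aar2-1 calls of AT1G34030 and RPS10B were the least stable of the 8: that of RPS10B was lost without any single one of the 9 libraries (limma, adjusted p from 0.0581 to 0.128), and that of AT1G34030 without any WT library, aar2-1 replicate 1, aar2-1 replicate 2, aar2-2 replicate 2 or aar2-2 replicate 3 (limma, adjusted p from 0.0531 to 0.111). The aar2-1 calls of these 2 genes, AT5G27850 and AT5G23900 were also lost under quantile normalization, with only the 2 groups compared and without the trend in limma.

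The largest fold change of all 51 genes belonged to the one with the lowest level. RPSAb (AT3G04770), 1 of 2 genes for RPSa, the plant relative of the laminin receptor precursor, was at 7.57, 7.89 and 9.01 CPM in aar2-1 and at 8.24, 9.47 and 10.12 CPM in aar2-2, against 7.11, 5.27 and 6.24 CPM in WT. Its libraries did not overlap with WT in either mutant. The log2 fold change was 0.52 in aar2-2 (limma, adjusted p = 0.0145) and 0.35 in aar2-1, where it missed the threshold (limma, adjusted p = 0.0524) but passed it under TMM scaling (limma, adjusted p = 0.0418). Its paralogue P40 was not called, with 0.05 in aar2-1 (limma, adjusted p = 0.600) and 0.16 in aar2-2 (limma, adjusted p = 0.138).

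RPS6 is the ribosomal protein phosphorylated by S6 kinase downstream of the kinase TOR, and both of its genes were higher in aar2-2. The gene carrying the symbol RPS6 (AT4G31700) was at 317, 290 and 273 CPM in aar2-1 and at 346, 324 and 313 CPM in aar2-2, against 250.1, 244 and 275 CPM in WT. In aar2-2 it stood at 0.35 (limma, adjusted p = 0.0117) and EMB3010 at 0.22 (limma, adjusted p = 0.0296), and neither passed the test in aar2-1. The lowest fold changes among the genes called in aar2-2 were those of AT3G53890 of RPS21 with 0.21, AT2G31610 of RPS3 with 0.22 and AT5G28060 of RPS24 with 0.22.

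The aar2-2 calls of the 8 genes called in both mutants were kept when single libraries were left out, except that of AT5G23900. RPL5B and RPS6 lost theirs without WT replicate 1 (limma, adjusted p = 0.0585 and 0.0519), AT3G10090 without WT replicate 1 or aar2-2 replicate 2, and RP1 without WT replicate 1, aar2-2 replicate 1 or aar2-2 replicate 2. STV1, BBC1 and EMB3010 lost theirs without WT replicate 1, WT replicate 2, aar2-2 replicate 1 or aar2-2 replicate 2, and AT3G53890, AT2G31610 and AT5G28060 without these or aar2-2 replicate 3. The RPL10B call rested on all libraries but aar2-1 replicates 1 and 3, and RPL10B and AT3G53890 were also not called with TMM scaling, edgeR or DESeq2.

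Over the 20 families with several genes among the 51, all of those genes were called in aar2-2 in 8 families (RPL4, RPL5, RPL13, RPL18, RPL24, RPS6, RPS24 and RPS28). None was called in 2 families, RPL28 among them, and some were called in the other 10.

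Levels between genes were compared per length, as CPM per kb of the longest mRNA. The highest were SAC52 of RPL10, known from suppressors of a dwarf mutant, with 378 CPM per kb in aar2-1, 406 in aar2-2 and 359 in WT; EMB2296 with 332 in aar2-1, 368 in aar2-2 and 318 in WT; and P40 with 325 in aar2-1, 348 in aar2-2 and 313 in WT. None of these 3 genes was called in either mutant. The lowest were RPSAb with 5.84 CPM per kb in aar2-1, 6.64 in aar2-2 and 4.44 in WT, RPL10B with 8.30 in aar2-1, 10.09 in aar2-2 and 8.11 in WT, and AT3G10090 of RPS28 with 19.3 in aar2-1, 21.2 in aar2-2 and 16.7 in WT. All 3 were called in aar2-2. Over the 51 genes, Spearman's rho between the WT level in CPM and the log2 fold change was 0.083 for aar2-1 and 0.077 for aar2-2. With mRNA length it was 0.224 and 0.321, with the number of introns 0.154 and 0.016 and with GC content 0.038 and -0.005, in the same order. These describe genes of the same 9 libraries, which are not independent points.

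Summed over the 51 genes, ribosomal protein mRNA took 1.05%, 0.980% and 0.948% of the reads in aar2-1 and 1.13%, 1.07% and 1.05% in aar2-2, against 0.897%, 0.869% and 0.958% in WT. The sum was 1.09-fold of WT in aar2-1, with overlap between libraries, and 1.20-fold of WT in aar2-2, without overlap. Under TMM scaling the aar2-1 libraries did not overlap with WT either, at a summed level of 9680 to 10503 against 8890 to 9431, and the sum was 1.10-fold of WT. The summed CPM of the large-subunit genes was 5772 ± 326 for aar2-1 and 6344 ± 266 for aar2-2, against 5181 ± 293 for WT (SD, n = 3 each). For the small-subunit genes it was 4152 ± 191 for aar2-1 and 4505 ± 151 for aar2-2, against 3898 ± 165 for WT (SD, n = 3 each).

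The large-subunit sum was higher relative to the small-subunit sum in the mutants. Dividing the large-subunit sum by the small-subunit sum gave 1.40, 1.41 and 1.36 in aar2-1 and 1.42, 1.41 and 1.40 in aar2-2, against 1.33, 1.31 and 1.35 in WT, so that all 6 mutant libraries were above all 3 WT libraries. Group means were 1.39 ± 0.0263 in aar2-1, 1.41 ± 0.0125 in aar2-2 and 1.33 ± 0.0190 in WT (SD, n = 3 each). Without the 3 genes of highest CPM, RP1, ATL5 and AT5G02870 of RPL4, all of the large subunit, the means were 1.03 in aar2-1, 1.04 in aar2-2 and 0.998 in WT. The ratio was then 1.035, 1.040 and 1.005 in aar2-1 and 1.054, 1.041 and 1.032 in aar2-2, against 1.003, 0.978 and 1.012 in WT. Every aar2-2 library was still above every WT library, whereas aar2-1 replicate 3 lay below WT replicate 3, so the separation of aar2-1 from WT depended on these 3 genes. A ratio of this kind does not change with the scaling of a library. It describes these sums of mRNA and not amounts of subunits.

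**Figure D4:**
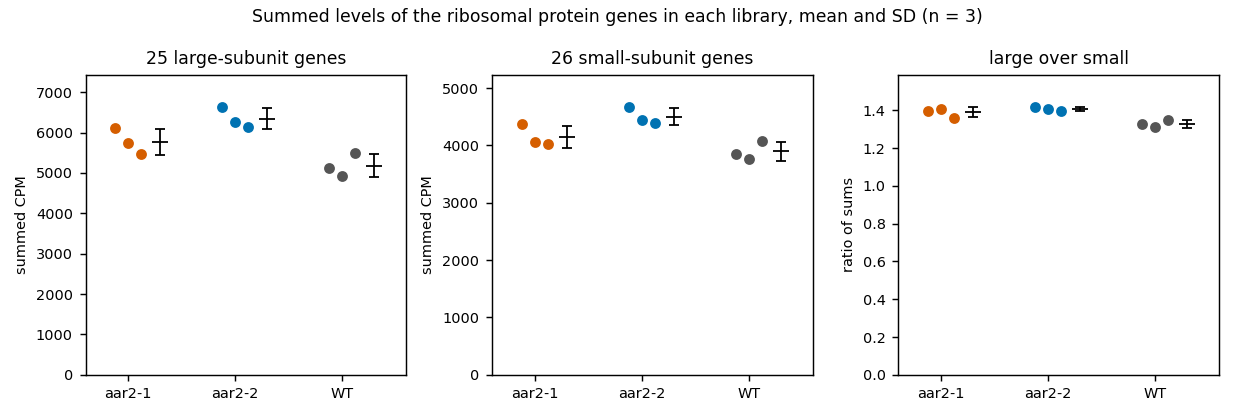
Summed CPM of the 25 large-subunit genes (left) and 26 small-subunit genes (middle), and the ratio of the 2 sums (right), in each library of aar2-1, aar2-2 and WT; bars give the mean and SD (n = 3). The ratio runs from 1.36 to 1.42 in the mutant libraries and from 1.31 to 1.35 in the WT libraries.

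Whether listed paralogues replaced one another was examined through each gene's share of the CPM per kb of its family's genes among the 51. Paralogues outside the 51 were not part of these sums, so a shift to or from them could not be seen. Of 34 shares, 28 moved by less than 2 percentage points in both mutants. The share of RPL24A was 34.0, 35.8 and 33.8% in aar2-1 and 35.7, 33.9 and 34.7% in aar2-2, against 31.4, 31.0 and 31.5% in WT. ATL5 made up 56.9, 57.2 and 57.3% of RPL5 in aar2-1 and 56.9, 56.6 and 57.2% in aar2-2, against 54.0, 54.9 and 54.8% in WT. In RPL8, EMB2296 held 77.7, 77.9 and 77.1% in aar2-1 and 78.7, 78.7 and 78.1% in aar2-2, against 81.2, 80.5 and 80.3% in WT.

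Mutant and WT libraries did not overlap for these 3 shares, and the largest shift of a group mean was the 3.49 points of RPL24A in aar2-2. RPS18C had 41.7, 42.9 and 43.3% of RPS18 in aar2-1 and 41.5, 41.2 and 40.1% in aar2-2, against 43.7, 43.9 and 43.4% in WT. With both mutants against WT, 6 shares reached the smallest p that 6 against 3 libraries can give (two-sided exact permutation test, p = 0.02381), and 12 had an unadjusted p under 0.05. After Benjamini-Hochberg adjustment over the 34 shares none passed, the lowest adjusted p being 0.135 (exact permutation test); an adjusted p under 0.05 would have needed at least 17 shares at the smallest p, so this design could not have called 1 share alone. With 3 against 3 libraries the smallest p is 0.1, reached by 10 shares in aar2-1 and 14 in aar2-2.

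**Figure D5:**
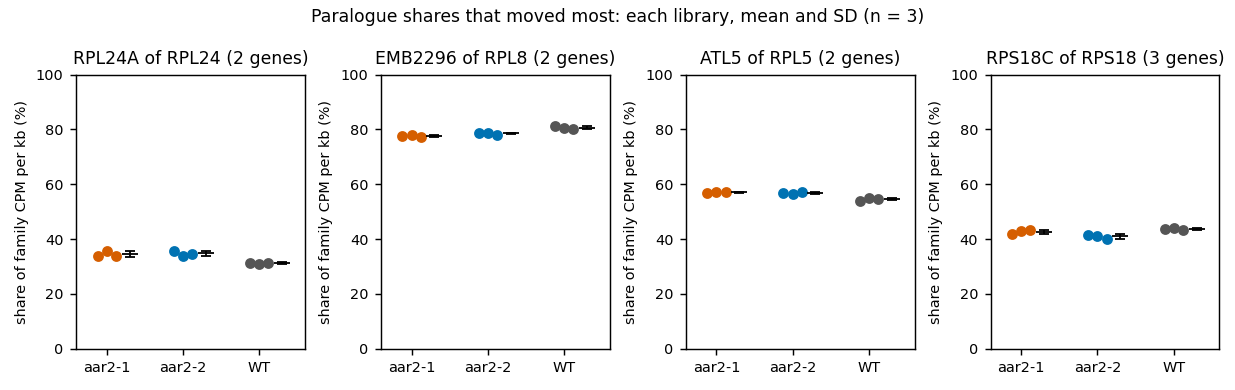
Share of 1 gene in the CPM per kb of its family's genes among the 51 (y axes, %) in each library of aar2-1, aar2-2 and WT. The 4 shares drawn are those named as having moved most, and bars give the mean and SD (n = 3). RPL24A runs from 33.8 to 35.8% in the mutant libraries and from 31.0 to 31.5% in WT.

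Most pairs of paralogues shared few exact stretches of sequence. Over the 34 pairs of paralogues, coding sequences were 64.4% to 99.1% identical with a median of 84.7%, gaps being counted as differences. Of these pairs, 32 shared under 1% of their windows of 50 bases. Exons of 6 of the 51 genes are overlapped by a listed gene on the other strand, among them AT4G36130, AT5G27850 and RPL24A, the last over 2.4% of its exonic bases.

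Genes with and without the upstream elements were set side by side as a description. The 32 genes with a site II match had a median log2 fold change of 0.15 in aar2-1 and 0.27 in aar2-2, and the 19 without it 0.08 and 0.20. Of those with it 7 were called in aar2-1 and 23 in aar2-2, and of those without it 1 and 8. Over all genes 11.5% were called higher in aar2-1 and 12.1% in aar2-2. Site II was found in 18 of the 25 large-subunit genes and in 14 of the 26 small-subunit genes. The large-subunit genes also had the larger medians, 0.15 against 0.09 in aar2-1 and 0.28 against 0.22 in aar2-2. Whether site II goes with the fold changes apart from the subunit was not tested. The 7 genes with a telo-box had medians of 0.05 in aar2-1 and 0.17 in aar2-2, and the other 44 genes 0.13 and 0.24. Among the telo-box genes were both RPL28 genes and both RPL13 genes of the 51, AT5G27700 of RPS21 and P40.

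The other cytosolic ribosomal protein genes were called in much the same proportions. Of 135 tested in a list of 138, 83 (61.5%) were higher in aar2-2, against 12.1% of all genes, and 20 (14.8%) in aar2-1, against 11.5%, with medians of 0.24 and 0.11, and 1 was lower in both. Among those that rose in both mutants, the largest mean fold changes were those of AT1G80750, with 0.53 in aar2-2 and 0.39 in aar2-1, AT2G45710, with 0.53 and 0.35, and AT1G04480, with 0.48 and 0.32. In aar2-1 the call of AT1G80750 was lost without WT replicate 2 or aar2-1 replicate 1, and that of AT2G45710 without WT replicate 1, WT replicate 3 or aar2-1 replicate 1. The one that fell was RPL3B, the paralogue of RP1. In CPM, RPL3B was at 14.2, 10.3 and 9.81 for aar2-1 and at 13.8, 11.5 and 11.3 for aar2-2, against 22.9, 20.2 and 25.3 for WT. Its log2 fold change was -0.95 in aar2-1 (limma, adjusted p = 0.00183) and -0.85 in aar2-2 (limma, adjusted p = 0.00408), and a listed gene lies on its other strand.

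Among factors that build ribosomes, of 38 tested, 21 were higher in aar2-2 and none was lower, against 12.1% and 9.4% of all genes. In aar2-1 11 were higher and 1 was lower, against 11.5% and 13.6% of all genes; medians were 0.26 in aar2-2 and 0.13 in aar2-1. NUC-L2, a nucleolin, which acts on ribosomal RNA genes, was at 2.66, 2.26 and 2.14 CPM in aar2-1 and at 2.16, 2.94 and 2.69 CPM in aar2-2, against 0.450, 0.649 and 0.363 CPM in WT, with log2 fold changes of 1.17 and 1.27 for aar2-1 and aar2-2 (limma, adjusted p = 0.000582 and 0.000565). Its WT level was under 1 CPM, so it passed the filter on low values only through the mutant libraries, and its fold changes depend on the pseudocount, being 2.09 and 2.22 with a pseudocount of 0.1. AT3G12860, which encodes a protein like NOP56 of the snoRNA-guided methylation complex, was at 0.60 in aar2-1 (limma, adjusted p = 0.00231) and 0.90 in aar2-2 (limma, adjusted p = 0.000565). AT3G15460, a Brix domain protein of ribosomal RNA processing, was called in aar2-1 only, at 0.76 (limma, adjusted p = 0.0196), and FIB1, a fibrillarin that methylates ribosomal RNA, was lower there at -0.19 (limma, adjusted p = 0.0313). The call of AT3G15460 was lost without WT replicate 1, WT replicate 2 or aar2-1 replicate 1, and that of FIB1 without WT replicate 1, WT replicate 3, aar2-1 replicate 2, aar2-1 replicate 3 or aar2-2 replicate 2.

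Genes that act in translation beside the ribosome formed a further list. Among 17 translation factors and associated proteins, 5 were higher and 1 lower in aar2-2, against 12.1% and 9.4% of all genes. In aar2-1 1 (5.88%) was higher and 1 lower, both below the 11.5% and 13.6% of all genes. The cap-binding factor EIF4E was at 0.20 in aar2-1 (limma, adjusted p = 0.0425) and 0.34 in aar2-2 (limma, adjusted p = 0.00744). In aar2-2 the ribosome-associated scaffold RACK1B was at 0.40 (limma, adjusted p = 0.00538) and the poly(A)-binding protein PAB8 at 0.31 (limma, adjusted p = 0.0391). The growth-related protein TCTP fell by 0.37 on the log2 scale in aar2-1 (limma, adjusted p = 0.0294) and by 0.49 in aar2-2 (limma, adjusted p = 0.0118). Of 6 TOR signalling genes tested, none was called in aar2-1, against 25.1% of all genes, and 2 were lower in aar2-2, against 9.4% of all genes: the S6 kinase gene PK1 at -0.33 (limma, adjusted p = 0.0483) and RAPTOR1, which brings substrates to TOR, at -0.18 (limma, adjusted p = 0.0350). Both were lost when any one WT or aar2-2 library was left out (limma, adjusted p from 0.0538 to 0.147), as was PAB8 in aar2-2 (limma, adjusted p from 0.0535 to 0.118). In aar2-1 the call of EIF4E was lost without any library but aar2-1 replicate 3 and aar2-2 replicate 3, and that of TCTP without WT replicate 1, WT replicate 2, aar2-1 replicate 1 or aar2-1 replicate 2.

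Markers of other cell types were examined beside these lists. Over 10 markers of dividing cells and meristems, the summed CPM lay between 97.5 and 111 for aar2-1 and between 102 and 109 for aar2-2, against 81.2 to 88.1 for WT. Of the 6 tested, CYCB1;1 and SYP111 (33.3%, against 11.5% of all genes in aar2-1 and 12.1% in aar2-2) were higher in both mutants and 4 were not called. SYP111 had log2 fold changes of 0.58 in aar2-1 (limma, adjusted p = 0.00149) and 0.68 in aar2-2 (limma, adjusted p = 0.00113). The defining meristem genes WUS, CLV3, PLT1 and PLT2 were at 0 in at least 1 library. Leaf markers had summed CPM of 33450 to 36430 for aar2-1 and 33880 to 37660 for aar2-2, against 31270 to 35040 for WT. Taken one by one, these markers did not all follow the sum. In aar2-2, 3 of the 4 lay below 0 and 1 above it, the middle value being -0.29 on the log2 scale. In aar2-1, 2 lay below 0 and 2 above it, with a middle value of -0.14. The test called 1 of 4 lower in aar2-2, against 9.4% of all genes, and none in aar2-1. For root markers the summed CPM was 4.46 to 5.12 for aar2-1 and 4.35 to 6.97 for aar2-2, against 6.96 to 9.11 for WT, with only PHT1;1 abundant enough to test, and it was lower in both. The part of these markers in the ribosomal protein result was not tested.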

How the data were processed

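Each library came as its own table of CPM, as deposited by the authors; the unit was read from the values, as the headers name only the sample. Per the submitters' processing notes, featureCounts 1.64, DESeq2 and TAIR10 were used; the aligner, annotation and strand setting are not given in the sources used here. Whole reads were recovered from the CPM steps for 99.9956% to 100% of values (within 0.05 read). A count test had not been planned as the main one: limma 3.58.1 (lmFit, eBayes with trend; R 4.3.3) was run on log2(CPM + 1) for 18838 genes averaging 1 CPM or more, with 9 libraries in 1 fit of 3 group means and Benjamini-Hochberg adjustment over all genes. edgeR 4.0.16 and DESeq2 1.42.0 on the recovered reads were alternatives, beside other scalings, filters, pseudocounts and single libraries left out. Genotypes and replicate numbers came from the sample titles. The procedure was tested on simulated data with planted changes larger than those of the 51 genes, so that test does not cover changes of their size. Shares were tested with exact permutations (scipy 1.17.1).

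Gene models and sequences came from RefSeq TAIR10.1, where 22767 codes matched; the tables hold no coordinates. Genes to name were those called in both mutants, the 3 highest and lowest by fold change among called genes, by level and by share, and up to 3 in each direction from each other list; further genes were named after their values were seen. The genes and lists were chosen with earlier results of these data known. Some of the genes are counted in the totals but not reported here by name.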

Additional observations from a re-analysis of the deposited data

How the results depend on the processing

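For aar2-1 the number of the 51 genes called, 8, was 5 under quantile normalization, 4 with only the 2 groups compared, 4 without the trend, 1 at an adjusted p under 0.01 and 13 with DESeq2, and 2 to 8 with 1 library left out. Calls in aar2-1 were also gained, for RPSAb, RPL5B and RPS6 under TMM scaling and for RPSAb and RPL5B with edgeR. For aar2-2 the 31 became 10 at an adjusted p under 0.01 and 12 to 35 with 1 library left out, and between the mutants it was 0 throughout. Over all genes, an adjusted p under 0.01 left 1699 of 4732 calls in aar2-1 and 1178 of 4046 in aar2-2, and leaving out a library gave 2341 to 4688 and 1746 to 4691. Between the mutants, 4 genes of all were called, against 12 with the replicate block, 8 with edgeR, 380 with DESeq2 and 3 to 176 with a library left out. The median of the 51 genes stayed between 0.06 and 0.15 in aar2-1 and between 0.20 and 0.27 in aar2-2 over all alternatives, and all 51 were above 0 in aar2-2 in each of them. Directions reversed for values near 0. With 1 library left out, RPL10B in aar2-1 ran from -0.0251 (without aar2-1 replicate 1) to 0.0817, and was -0.0030 without WT replicate 1; EMB2296 in aar2-1 ran from -0.0065 to 0.1208, and between the mutants RPS18C from -0.0485 to 0.0392 and PK1 from -0.153 to 0.0130. RPS18C was also lower in aar2-2 than in aar2-1 under TMM scaling (-0.0296), with edgeR (-0.0299) and with DESeq2 (-0.0321). The cause was not tested.

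Same-numbered libraries correlated between -0.191 and 0.518 in their deviations from the group means. Those of replicate 3 were all positive (0.220, 0.263 and 0.518) and those of replicates 1 and 2 of mixed sign, and as not every pair exceeded 0.1 the numbers were not taken to pair the libraries. With the replicate block 6 of the 51 genes were called in aar2-1 and 27 in aar2-2. Depth limits RPSAb most, with 146 reads in its lowest library.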
